A study of Mus musculus with 18 samples.

Results

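The cytosolic ribosomal protein genes of the mouse were examined in 4 lists of chromatin regions listed as differing between mice with a cardiomyocyte deletion of the methyltransferase gene G9a and their controls. The genes were chosen by name: protein-coding autosomal genes whose symbol is Rpl or Rps followed by a digit, plus Rpsa and Rplp0 to Rplp2, without the Rps6k kinases and names of pseudogenes. The rule found 85 of 20665 protein-coding autosomal genes. Of these, 73 encode a protein of the ribosome itself (43 of the large subunit and 30 of the small subunit, here called core genes), 11 are duplicated or retrotransposed copies such as Rpl3l and Rpl10l, and 1, Rps19bp1, is named after a ribosomal protein to which its product binds. No measured value entered the rule.

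Cardiomyocyte-enriched populations from hearts of C57BL/6J mice were profiled by chromatin immunoprecipitation and sequencing (ChIP-seq). The KO group carried G9a flox/flox and alphaMHC-MerCreMer +/-, and the control group, called Cre, carried alphaMHC-MerCreMer +/- alone, so the transgene was shared by both. MerCreMer is a Cre recombinase that acts once tamoxifen is given, and its promoter, that of the alpha myosin heavy chain gene Myh6, is active in cardiomyocytes, so that other cells of the heart keep their G9a gene. Each of the 4 targets (G9a, H3K9me2, H3K27me3 and Mef2c) had 2 Cre and 2 KO libraries, described as biological replicates, and each genotype had 1 input library, 18 libraries in all. The sources used here give no age and no tamoxifen time, and no transcript level was at hand with which to check the deletion.

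Ribosomal protein genes are short, highly transcribed in every cell type, and expressed together because each ribosome holds 1 copy of nearly every protein. Many have promoters without a TATA box and with binding sites for ETS factors such as GABP, and their transcripts begin with a run of pyrimidines, the 5′ terminal oligopyrimidine tract, through which mTOR signalling controls their translation. G9a places H3K9me2, and Polycomb repressive complex 2 places H3K27me3. Both marks are typical of silent chromatin. Mef2c is a DNA-binding activator of muscle genes.

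The promoters of the genes were read first, because they show what the listed regions touch or miss. RefSeq promoter sequences (GRCm38.p6) were at hand for 65 of the 85 genes, 53 of them core, and for 16457 genes in all. The stretches below run from 80 bases before to 20 bases after the annotated start, 5′ to 3′. The first 5 are core promoters that a listed region touched, and the last 3 belong to copies. Capitals mark a pyrimidine run of at least 5 bases at the start and the ETS letters CCGGAAG.
Rpl38 (chr11:114668500-114668599, plus strand): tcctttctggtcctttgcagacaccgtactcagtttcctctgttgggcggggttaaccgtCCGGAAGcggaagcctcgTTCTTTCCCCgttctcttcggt
Rpl35 (chr2:39005112-39005211, minus strand): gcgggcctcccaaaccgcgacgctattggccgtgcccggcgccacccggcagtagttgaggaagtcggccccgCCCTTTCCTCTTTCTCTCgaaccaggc
Rps6 (chr4:86857348-86857447, minus strand): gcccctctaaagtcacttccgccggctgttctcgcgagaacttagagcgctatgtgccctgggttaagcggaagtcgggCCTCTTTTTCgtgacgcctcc
Rpl26 (chr11:68901486-68901585, plus strand): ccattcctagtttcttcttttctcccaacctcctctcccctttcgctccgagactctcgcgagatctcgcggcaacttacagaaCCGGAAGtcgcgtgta
Rps23 (chr13:90923042-90923141, plus strand): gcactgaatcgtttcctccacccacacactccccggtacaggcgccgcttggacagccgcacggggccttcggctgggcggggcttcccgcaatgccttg
Rpl3l (chr17:24727746-24727845, plus strand): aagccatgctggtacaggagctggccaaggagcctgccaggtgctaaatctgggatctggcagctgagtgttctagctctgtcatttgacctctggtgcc
Rpl10l (chr12:66284382-66284481, minus strand): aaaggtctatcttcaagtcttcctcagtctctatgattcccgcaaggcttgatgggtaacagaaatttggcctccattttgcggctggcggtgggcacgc
Rps27rt (chr9:114982720-114982819, minus strand): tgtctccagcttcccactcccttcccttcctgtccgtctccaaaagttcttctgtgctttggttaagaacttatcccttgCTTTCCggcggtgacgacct

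The letters CCGGAAG, on either strand, stood in the 300 bases around the start of 22 of 53 core genes (41.5%), against 12.3% of all 16457 promoters. A pyrimidine run of at least 5 bases over or next to the annotated start was present in 21 of 53 core genes (39.6%) and in 18.7% of all promoters, and the runs of the 65 genes were up to 21 bases long. Rpl35 has a run of 18 bases and Rpl38 and Rps6 have runs of 10. The YY1 letters AAGATGGCG stood in 5.66% of core and 1.92% of all promoters, and TATAAA in 7.55% and 13.5%. The E box CACGTG stood in 9.43% of core and 7.97% of all promoters. The MEF2 consensus was in 0 of the 65 promoters and in 2.81% of all. These are matches of letters, not sites, and a missing match says only that the letters are not in this window.

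The authors' deposited lists give, for each region, 4 values (2 Cre, 2 KO), the direction of the difference and a −log10 p from the authors' test. Only regions that differed are listed, so sequence outside them has no value, and a gene without a listed region is not shown to lack the mark. The scale of the values and the depth behind them are unknown, so no interval for counting error is given. A gene was assigned every region that overlapped its span or the 2 kb on either side. At the 85 genes this gave 112 G9a regions, 95 H3K9me2 regions, 32 H3K27me3 regions and 91 Mef2c regions. Length matters for such counts: the median span was 3230 bases for the 85 genes and 17491 for all genes. Shares are therefore also given for the 10088 genes whose span does not exceed that of the longest member (16779 bases), here called short genes. This bound caps length without matching it: the longest member is a copy, Rps23rg1, and the longest core gene spans 11774 bases.

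H3K27me3 was the target with the fewest regions at ribosomal protein genes. No listed H3K27me3 region lay at 71 of the 85 genes, against 30.9% of all genes and 36.8% of short genes. Among core genes the number without a region was 63 of 73 (86.3%), made up of 35 of 43 large-subunit and 28 of 30 small-subunit genes. Regions were lower only in KO at 8 genes (12.8% of all and 16.5% of short genes), higher only at 4 (9.14% and 9.48%), and in both directions at 2 (47.2% and 37.2%). Cre and KO values did not overlap in 65.6% of the 32 regions, beside 67.1% of all H3K27me3 regions. For the other targets, 28 genes had no region for G9a (8.17% of all and 15.1% of short genes), 30 had none for H3K9me2 (7.22% and 13.6%) and 28 had none for Mef2c (7.82% and 14.7%). The share without a region was thus above that of short genes, which are capped but not matched in length, for every target.

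**Figure D1:**
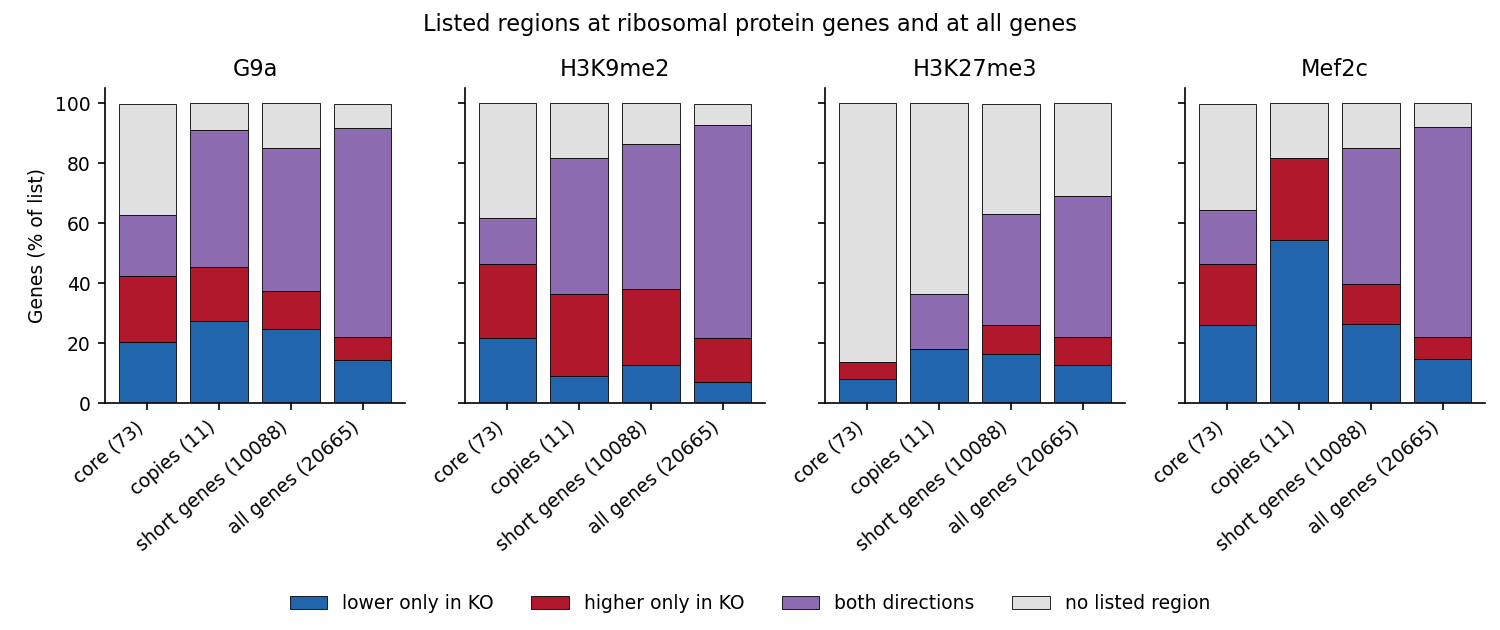
Share of genes (y axis, percent) with listed regions lower only, higher only or in both directions in KO, or with no listed region, for each ChIP target, in core ribosomal protein genes, their copies, short genes and all genes (x axis, number of genes in brackets). The grey part is tallest for the core genes under H3K27me3, at 86.3% against 36.8% of short genes.

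The bases themselves gave the same order. Listed H3K27me3 regions covered 0.388% ± 2.31 (SD over 73 genes) of the span of a core gene, and 0 of 30 small-subunit genes had any covered base in the span. The mean over all genes was 21.3% and over short genes 25.6%. Outside the span, in the 2 kb on either side, the core genes had 2.13% of their bases covered and all genes 21.7%. The span cover of core genes was 5.14% for G9a (all genes 18.5%), 4.16% for H3K9me2 (17.7%) and 7.44% for Mef2c (15.6%). Mef2c had the highest span cover of the 4 targets at core genes and the lowest over all genes.

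Cover at the core genes was lowest around and after the start of transcription. From 500 to 3000 bases after the annotated start, 0.0% of the bases of the 53 core genes lay in a listed H3K27me3 region, whereas all genes had between 21.5% and 25.8% in each 500-base step there. From 3000 to 2500 bases before the start, cover at the core genes was 11.7% for H3K27me3, 19.1% for G9a and 20.8% for Mef2c. The G9a value there lay beside 19.4% for all genes. In the step from 500 to 1000 bases after the start it was 0.86% for G9a and 0.0% for H3K9me2, beside 17.9% and 15.3% for all genes. For Mef2c, cover of the core genes was 5.14% in the last 500 bases before the start and 7.69% in the first 500 after it, while all genes reached 20.7% in that step. These profiles pool bases of 53 genes and carry no test.

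**Figure D2:**
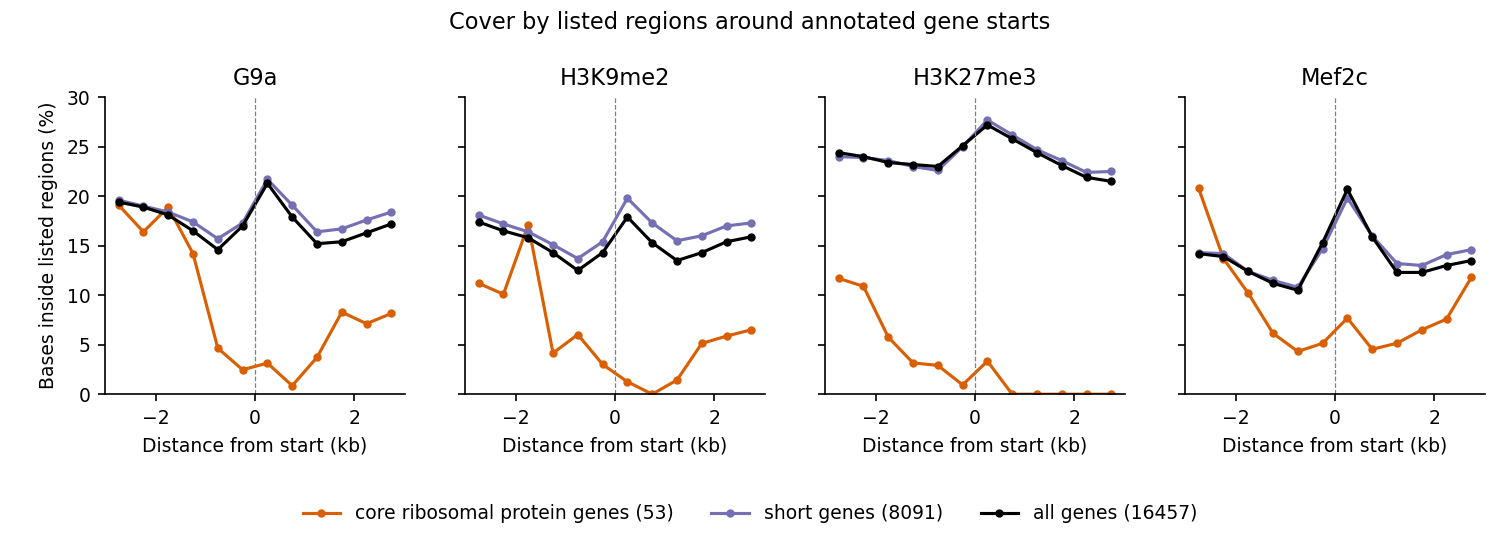
Share of bases inside listed regions (y axis, percent) in steps of 500 bases from 3 kb before to 3 kb after the annotated start (x axis, kb) for each target, in core ribosomal protein genes, short genes and all genes of the promoter table. The core genes lie below the other curves from 1 kb before the start onward for all 4 targets, and at 0.0% for H3K27me3 from 500 bases after the start.

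Reads from near-identical processed pseudogenes cannot be placed uniquely, and the sources used here do not say how such reads were treated. The annotation names 269 pseudogenes after 55 of the members, all 55 of them core. Without a named pseudogene, 15 of 18 core genes had no H3K27me3 region, and with one, 48 of 55. The span cover was 0.0% in the 18 genes and 0.515% in the 55. For H3K9me2, 4 of 18 (22.2%) and 24 of 55 (43.6%) core genes had no region, beside 13.6% of short genes. For G9a these were 6 of 18 (33.3%) and 21 of 55 (38.2%), beside 15.1%. For Mef2c the order was the other way, with 7 of 18 (38.9%) and 19 of 55 (34.5%), beside 14.7%. The split was not tested. Pseudogenes that are not named after a gene were not counted, so exonic values of all core genes remain uncertain.

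Genes of neighbouring pathways were described in the same way. Listed H3K27me3 regions were absent at 51 of 78 mitochondrial ribosomal protein genes (65.4%), 30 of 35 translation factors (85.7%) and 23 of 40 ribosome biogenesis factors (57.5%), and the span cover of these lists was 0.321%, 2.46% and 0.554%. Low cover by listed H3K27me3 regions was thus shared with other genes of protein synthesis. For H3K27me3, regions were lower only and higher only, in that order, at 17 and 5 of 78 mitochondrial ribosomal protein genes. They were so at 3 and 0 of 35 translation factors and 9 and 4 of 40 biogenesis factors. The shares were 12.8% and 9.14% of all genes and 16.5% and 9.48% of short genes. For G9a the numbers were 14 and 16, 9 and 6, and 7 and 5 (14.3% and 7.88% of all, 24.7% and 12.6% of short genes). For H3K9me2 they were 6 and 16, 4 and 6, and 3 and 10 (6.92% and 14.9%, then 12.8% and 25.4%). For Mef2c they were 16 and 17, 6 and 5, and 4 and 7 (14.7% and 7.39%, then 26.5% and 13.3%). None of these numbers was tested. For H3K9me2, cover of the span was 12.8% in the mitochondrial ribosome list and 11.2% in the biogenesis list, against 4.16% in the core genes.

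Marker genes of 4 cell types were described too, although the labelled cell type cannot be checked with lists that hold differences alone. Cover by listed H3K27me3 regions was 2.91% of the span of 10 cardiomyocyte markers such as Myh6 and Tnnt2, and 37.6% for 10 fibroblast, 38.1% for 10 endothelial and 37.5% for 10 leukocyte markers. All 10 fibroblast and all 10 endothelial markers had a listed H3K27me3 region in the span, as had 8 of 10 leukocyte markers and 4 of 10 cardiomyocyte markers. In such bulk chromatin, a change in the share of a cell type and a change within each cell cannot be told apart.

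**Figure D3:**
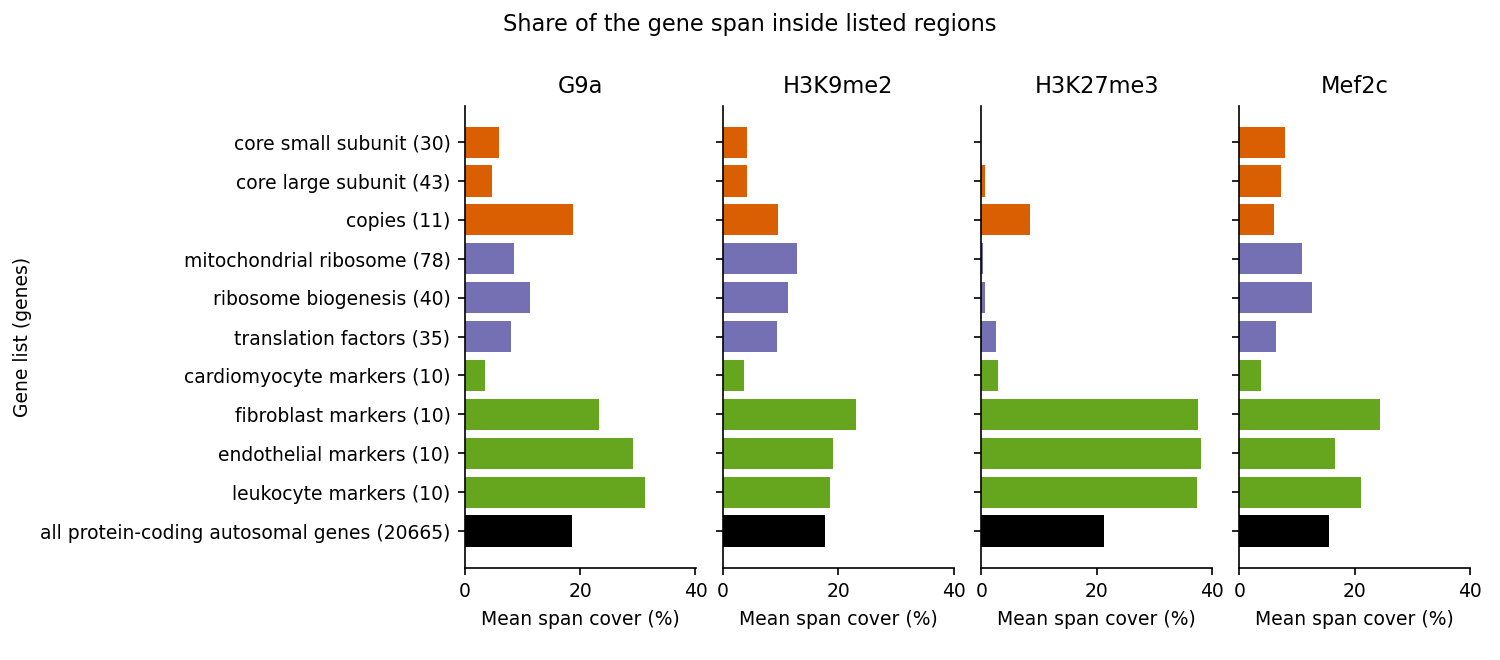
Mean share of the gene span inside listed regions (x axis, percent) for each target and gene list (y axis, number of genes in brackets): ribosomal protein genes in orange, other genes of protein synthesis in purple, cell type markers in green and all genes in black. Under H3K27me3 the bar is at 0.0% for the core small subunit, 0.659% for the core large subunit and 21.3% for all genes.

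H3K27me3 regions lay at 10 core genes and at 4 copies (Rps23rg1, Rpl39l, Rps27rt and Rpl10l). Of the 32 regions, 14 lay at Rps23rg1 alone, 7 at the other 3 copies and 11 at the core genes. Among core genes the highest listed values, not divided by region width, were at Rpl38, a large-subunit protein. Its region of 3850 bases (chr11:114664001-114667850) was long against the median of 700 over the 32 regions. It reached the first bases of the gene span and ended before the promoter printed above. In the authors' deposited list its values were 1704 and 1522 in Cre against 1346 and 837 in KO. Both KO values were under both Cre values, because the region was picked for that, with a log2 ratio of KO to Cre of -0.56. The region at Rps20, a small-subunit protein, lay outside the gene, inside the neighbouring gene Gm32823. Only the edge of this region lay in the 2 kb on either side of Rps20, where it covered 0.125% of the bases. Its listed values were 365 and 467 in Cre against 154 and 142 in KO (log2 KO to Cre -1.48).

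Rpl21, of the large subunit, had values of 298 and 347 in Cre against 168 and 149 in KO in a flanking H3K27me3 region. Rpl26 and Rpl35, both of the large subunit, were the 2 of 65 genes whose promoter was touched by a listed H3K27me3 region (3.08%, against 30.1% of all promoters), and both were listed as higher in KO. At the Rpl26 start (chr11:68901451-68902050) the listed values were 52 and 55 in Cre against 29 and 190 in KO, so the groups overlapped and the second KO value set the direction. At Rpl35 they were 60 and 13 in Cre against 63 and 71 in KO. A region upstream of Rpl26 had 138 and 85 in Cre against 197 and 188 in KO. A flanking region at Rpl37a, of the large subunit, had 43 and 20 in Cre against 90 and 53 in KO.

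For G9a itself, regions were lower only in KO at 19 genes (14.3% of all and 24.7% of short genes), higher only at 18 (7.88% and 12.6%), and in both directions at 20 (69.6% and 47.7%). For the gene span alone, without the 2 kb on either side, 18 genes were lower only and 10 higher only, beside 15.8% and 8.67% of all genes. Of the 112 regions, 59 were lower and 53 higher. That is 52.7% lower against 61.5% of all 621134 G9a regions. The share of regions whose Cre and KO values did not overlap was 60.7% at these genes and 61.5% overall.

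The G9a regions with the strongest −log10 p lay mostly beside the genes. At Rpl18, of the large subunit, a region inside the neighbour Fam83e had listed values of 188 and 180 in Cre against 40 and 2 in KO (log2 KO to Cre -3.07, and from -5.95 to -2.17 with 1 value left out in turn). At Rps3, a small-subunit protein at the mRNA entry site, a flanking region had 260 and 511 in Cre against 153 and 91 in KO. Rps25, of the small subunit, had 201 and 304 in Cre against 89 and 71 in KO inside Ccdc84. Only the edges of the Rpl18 and Rps3 regions lay in the 2 kb beside the gene (1.475% of the flanking bases at Rps3). Most of the Rps25 region also lay beyond the 2 kb. In these 3 regions both KO values were under both Cre values, because the regions were picked for that. The KO values of Rpl18 differed from each other far more than its Cre values. Rps18 showed a similar split of its KO libraries inside B3galt4, with 156 and 167 in Cre against 6 and 58 in KO.

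Higher G9a values in KO were listed beside Rps9, a small-subunit protein, at 0 and 2 in Cre against 75 and 85 in KO (chr7:3707801-3708150). They were also listed beside Rps24, of the small subunit, at 50 and 37 in Cre against 158 and 197 in KO. Rpl37, of the large subunit, had 0 and 19 in Cre against 31 and 134 in KO. Cre and KO did not overlap in any of these 3 regions, because the regions were picked for that. Promoters were touched by a G9a region in 6 of 65 genes (9.23%, all promoters 25.2%): the core genes Rpl38, Rps23 and Rps6 and the copies Rpl10l, Rpl37rt and Rps27rt.

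All 3 core promoters were listed as higher in KO, but with unequal libraries. In a region that ends just inside the Rps6 gene, next to the pyrimidine run shown above, G9a values were 121 and 20 in Cre against 52 and 193 in KO. Over the Rps23 start they were 122 and 39 in Cre against 116 and 193 in KO. Over the Rpl38 start they were 36 and 43 in Cre against 24 and 141 in KO. The Cre and KO values overlapped in all 3. Rps6 is the small-subunit protein phosphorylated by S6 kinase, Rps23 lies at the decoding centre, and Rpl38 is a large-subunit protein known for its part in the translation of Hox transcripts.

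For H3K9me2, regions were lower only in KO at 17 genes (6.92% of all and 12.8% of short genes), higher only at 22 (14.9% and 25.4%), and in both directions at 16 (70.9% and 48.2%). For the span alone, 12 genes were lower only and 12 higher only (8.62% and 16.4% of all genes). Of the 95 regions 41.1% were lower, beside 39.7% of all H3K9me2 regions. The promoters of 8 of 65 genes were touched (12.3%, all promoters 21.5%), of which Rpl19, Rpl26 and Rps24 are core. Over the Rpl26 start the H3K9me2 values were 93 and 73 in Cre against 28 and 51 in KO (chr11:68901401-68901900), lower in both KO libraries. This region shared bases with the H3K27me3 region over the same start that was listed as higher.

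The strongest lower H3K9me2 region at a core gene was beside Rplp1, a protein of the ribosomal stalk, with 141 and 251 in Cre against 110 and 19 in KO. The groups did not overlap there, because the region was picked for that, and 1 KO library lay far below the other 3 values. Rpl31, of the large subunit, had 136 and 62 in Cre against 19 and 26 in KO inside its neighbour Tbc1d8.

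Among higher H3K9me2 regions, Rpl27a, of the large subunit, had 40 and 0 in Cre against 124 and 116 in KO in a flanking region. Rpl6, of the large subunit, had 52 and 20 in Cre against 126 and 176 in KO. Rps28, of the small subunit, had 90 and 92 in Cre against 100 and 368 in KO inside Kank3. The 2 genotypes did not overlap in these regions, because the regions were picked for that (65.7% of all H3K9me2 regions did not overlap). The Rps28 difference came mainly from the second KO value.

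Many ribosomal protein genes carry small nucleolar RNA genes in their introns, and 28 members, all core, held 57 of them. Of these 28 host genes, 3 had H3K9me2 regions lower only and 12 higher only, and of the 45 core genes without one, 13 were lower only and 6 higher only, beside 12.8% and 25.4% of short genes. For G9a the corresponding numbers were 4 and 5 of 28, and 11 and 11 of 45, beside 24.7% and 12.6%. For H3K27me3 they were 4 and 1 of 28, and 2 and 3 of 45 (16.5% and 9.48% of short genes). For Mef2c they were 6 and 3 of 28, and 13 and 12 of 45 (26.5% and 13.3%). This split was made after values had been seen and was not tested. Rpl3, Rpl13a and Rps16 had no listed region for any target, and each holds such an RNA.

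For Mef2c, regions were lower only in KO at 26 genes (14.7% of all and 26.5% of short genes), higher only at 18 (7.39% and 13.3%), and in both directions at 13 (70.1% and 45.5%). Of the 91 regions 60.4% were lower, beside 61.7% of all Mef2c regions, and 63.7% did not overlap between genotypes, beside 65.9%. Regions touched the promoters of 7 of 65 genes (10.8%, all promoters 24.4%). Those of the core were Rpl38, Rps13, Rps2 and Rps23.

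Rpl10a, a large-subunit protein, had the strongest Mef2c region. It lay inside the gene (chr17:28329201-28329750), with listed values of 162 and 78 in Cre and listed at 0 in both KO libraries. Rpl19, of the large subunit, had 169 and 87 in Cre against 26 and 0 in KO in a region inside the gene. Beside Rps3a1, a small-subunit protein, the values were 197 and 185 in Cre against 26 and 41 in KO (log2 KO to Cre -2.48). Beside Rps20, within Gm32823, they were 131 and 180 in Cre against 17 and 20 in KO (log2 KO to Cre -3.00). The Rps20 region shared bases with the H3K27me3 region described above, and both were lower. Most bases of each lay beyond the 2 kb around Rps20. In each of these 4 Mef2c regions both KO values lay under both Cre values, because the regions were picked for that. Another Mef2c region inside Rpl19 was listed as higher, with 33 and 57 in Cre against 82 and 95 in KO.

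Higher Mef2c values in KO were listed inside Rpl9, a large-subunit protein, with 82 and 88 in Cre against 285 and 255 in KO (chr5:65388951-65390200), a log2 ratio of 1.66. The libraries of each genotype lay close together there, and Rpl9 had no listed region for the other targets. Rpl11, a large-subunit protein that also binds Mdm2, had 9 and 32 in Cre against 92 and 175 in KO in a flanking region. Beside Rps12, of the small subunit, the values were 35 and 0 in Cre against 89 and 137 in KO. Over the Rps23 start, where G9a was listed as higher, Mef2c was listed as lower with 151 and 45 in Cre against 42 and 40 in KO. Over the Rpl38 start Mef2c was lower as well, with 140 and 103 in Cre against 85 and 47 in KO.

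**Figure D4:**
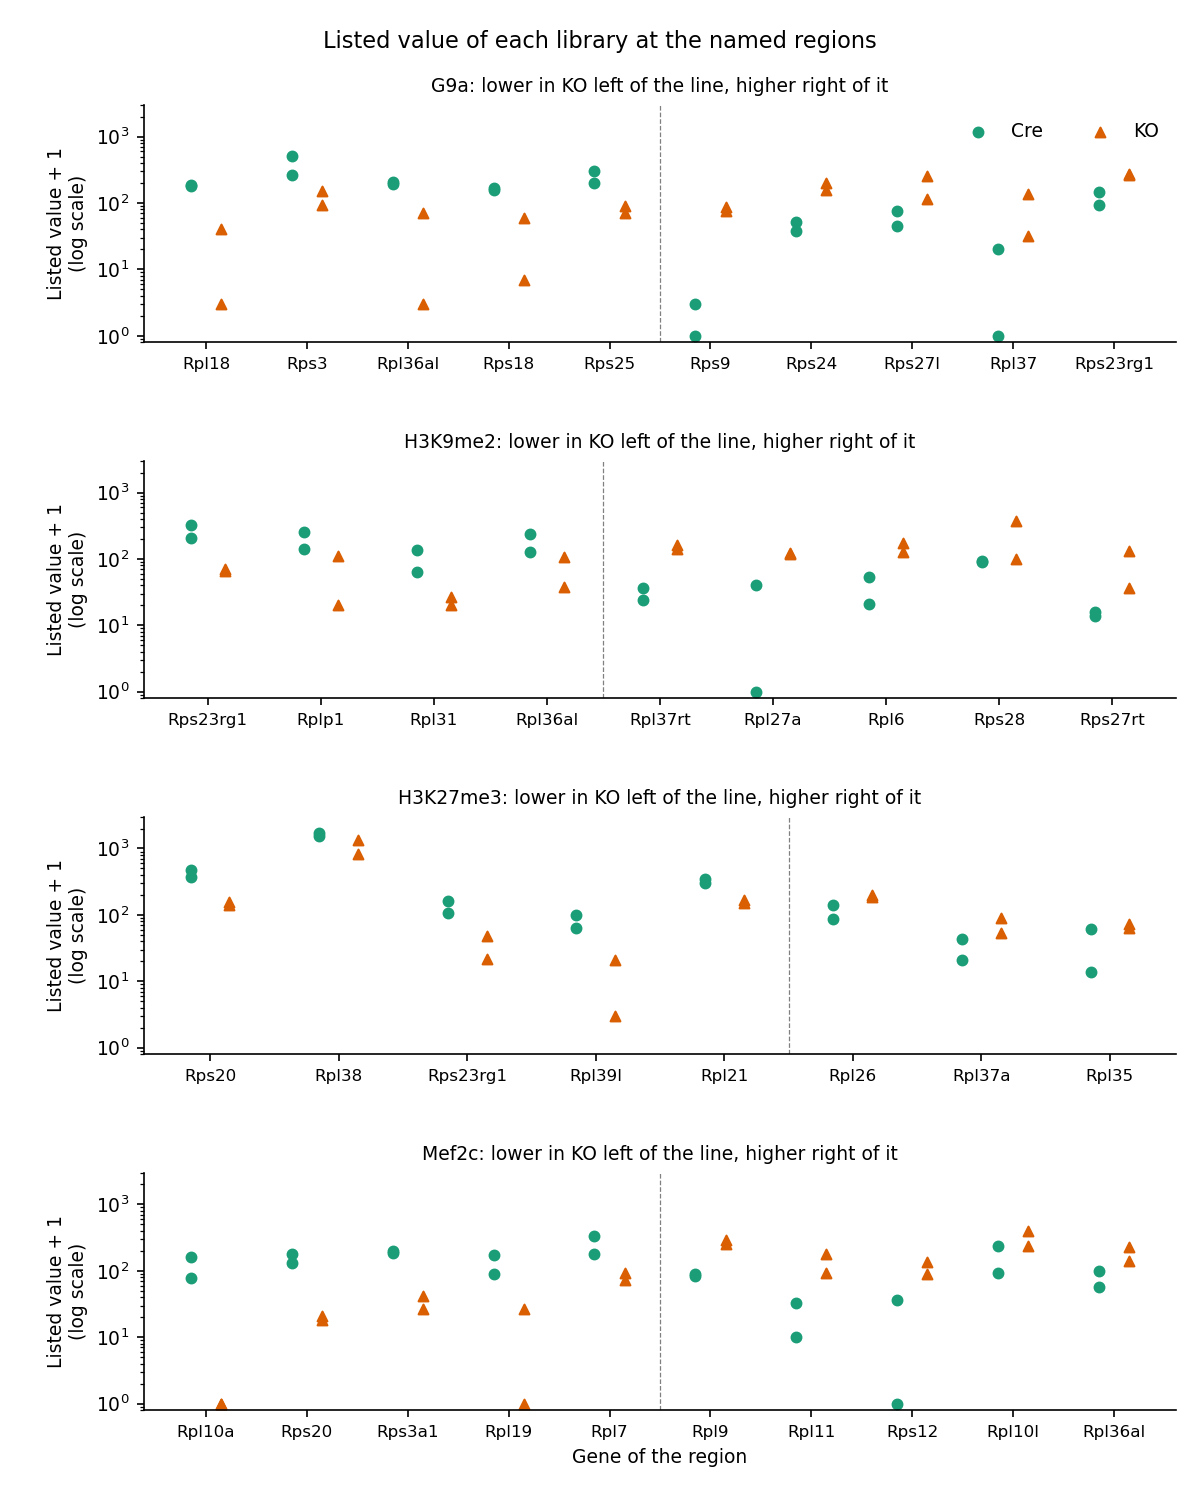
Listed value plus 1 (y axis, log scale, unit unknown) of the 2 Cre (circles) and 2 KO (triangles) libraries at the strongest region of each named gene (x axis), with regions lower in KO left of the dashed line and higher ones right of it, 1 panel for each target. Cre and KO do not overlap in any region because the regions were chosen so. The highest values, not divided by region width, are those of Rpl38 under H3K27me3, 1704 and 1522 in Cre.

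Against the spread between libraries, no region at these genes passed the test across all regions. With limma over all listed regions of a target (Benjamini-Hochberg at 0.05), 0 of 112 G9a, 0 of 95 H3K9me2, 0 of 32 H3K27me3 and 0 of 91 Mef2c regions at the 85 genes passed. The lowest adjusted p of a member region was 0.454, 0.4, 0.322 and 0.399 in that order. At an unadjusted limma p under 0.05 there were 8 (6.5% of all G9a regions), 6 (11.1% of H3K9me2), 5 (15.3% of H3K27me3) and 12 (11.3% of Mef2c). Of the 8 G9a regions 7 were lower and 1 higher, of the 6 H3K9me2 regions 2 and 4, of the 5 H3K27me3 regions 5 and 0, and of the 12 Mef2c regions 10 and 2. This balance turned for 3 targets when the libraries were scaled to a common median: lower and higher regions then numbered 2 and 5 for G9a, 8 and 3 for H3K9me2 and 3 and 8 for Mef2c, and 1 and 0 for H3K27me3. The 3 smallest unadjusted p-values were 0.00492 at Rps3a1 for Mef2c (log2 difference -2.51, SE 0.70), 0.00562 at Rps20 for H3K27me3 (-1.48, SE 0.44) and 0.00621 at Rps20 for Mef2c (-2.99, SE 0.87), all by limma. Such p-values are too small, because the authors listed the regions for their difference. Both Rps20 regions lay mostly beyond the 2 kb around that gene. The smallest exact two-sided permutation p for 2 values against 2 is 0.333. With the first G9a KO value left out, 10 G9a regions at these genes passed, beside 64315 of all G9a regions.

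Regions were listed at a larger share of the copies than of the core genes, a difference that was not tested, and the share at the copies was under that of all genes for every target. At least 1 G9a region lay at 10 of 11 copies (90.9%) and 46 of 73 core genes (63.0%), beside 91.8% of all and 84.9% of short genes. An H3K9me2 region lay at 9 of 11 and 45 of 73 (92.8% of all and 86.4% of short genes), an H3K27me3 region at 4 of 11 and 10 of 73 (69.1% and 63.2%), and a Mef2c region at 9 of 11 and 47 of 73 (92.2% and 85.3%). Span cover by G9a was 18.8% ± 27.2 (SD over 11 genes) at the copies and 5.14% ± 8.75 (SD over 73 genes) at the core, with a median of 0.0% in both. Rpl10l (73.4%), Rps27rt (63.9%) and Rps23rg1 (32.3%) had the highest G9a cover among the copies. All 3 are retrotransposed copies, and Rps27rt lies inside Osbpl10. Reads shared with a parent gene make the values of such copies uncertain.

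Rpl10l, a testis-expressed copy of the X-linked Rpl10, had a G9a region over its start and whole promoter (chr12:66283651-66284950) with 257 and 269 in Cre against 118 and 99 in KO (log2 KO to Cre -1.27). Both KO values were under both Cre values, with an unadjusted limma p of 0.0476 and an adjusted p of 0.454. Over the same start H3K9me2 was listed as higher, with 74 and 121 in Cre against 102 and 173 in KO, which overlap. Beside the gene, G9a (228 and 131 in Cre, 287 and 393 in KO) and Mef2c (232 and 92, then 393 and 239) were both listed as higher on shared bases.

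Rps23rg1, a retrotransposed copy of Rps23 and the longest member, had regions for all 4 targets. Its strongest H3K9me2 region (chr8:3579601-3580500) had 320 and 203 in Cre against 69 and 64 in KO (log2 KO to Cre -1.96), and the G9a region at the same place had 249 and 220 in Cre against 103 and 114 in KO. Another H3K9me2 region in the gene was listed as higher, with 22 and 3 in Cre against 108 and 141 in KO. All 5 of its Mef2c regions were lower in KO, while its 14 H3K27me3 regions went in both directions. The strongest lower H3K27me3 region had 160 and 104 in Cre against 47 and 21 in KO. Its strongest higher G9a region had 94 and 148 in Cre against 277 and 261 in KO.

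Rpl39l, a testis-expressed copy of the X-linked Rpl39, had 4 H3K27me3 regions in its span. In the strongest, the values were 99 and 62 in Cre against 20 and 2 in KO (log2 KO to Cre -2.76, and from -4.76 to -1.96 with 1 value left out in turn). In another, they were 0 and 100 in Cre against 33 and 152 in KO, listed as higher but with overlapping values. A flanking Mef2c region of Rpl39l had 47 and 40 in Cre against 138 and 42 in KO, which overlap. Rps27rt, a retrotransposed copy of Rps27, had both of its H3K27me3 regions lower, the stronger with 164 and 139 in Cre against 53 and 47 in KO. Its strongest H3K9me2 region was higher, with 13 and 15 in Cre against 35 and 129 in KO.

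Rpl3l, which replaces Rpl3 in ribosomes of heart and skeletal muscle, was compared with its parent. Rpl3 had no listed region for any target. Rpl3l had none for G9a or H3K27me3. A Mef2c region inside Rpl3l (chr17:24728301-24728650) had 63 and 97 in Cre against 4 and 0 in KO, and both KO values lay far under both Cre values, although the limma adjusted p was 0.399. An H3K9me2 region over the Rpl3l start, which covers part of the sequence printed above, had 100 and 30 in Cre against 0 and 63 in KO and was listed as lower with overlapping values. A further H3K9me2 region, inside Msrb1, had 34 and 15 in Cre against 78 and 70 in KO.

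Rpl22 and its copy Rpl22l1 share a role in the large subunit. Rpl22 had G9a regions in both directions, the strongest with 96 and 134 in Cre against 35 and 5 in KO, and none for the other targets. At Rpl22l1, 1 upstream site inside Gm32950 was listed for 3 targets: lower for G9a (41 and 149 in Cre, 106 and 3 in KO), higher for H3K9me2 (146 and 25, then 113 and 261) and lower for Mef2c (87 and 150, then 97 and 60). Values overlapped between genotypes for all 3.

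Rpl7 and Rpl7l1 gave a Mef2c region each that was lower in KO, at 175 and 332 in Cre against 91 and 72 in KO for Rpl7 (inside Rdh10), and at 239 and 139 in Cre against 4 and 94 in KO inside Rpl7l1. Rpl7 had G9a regions in both directions. The strongest, beside the gene, was lower, with 137 and 122 in Cre against 37 and 1 in KO. Another, inside Rpl7, was listed as higher. The G9a region beside Rpl7l1 was higher, with 22 and 46 in Cre against 61 and 134 in KO. For H3K9me2, Rpl7 had 146 and 6 in Cre against 49 and 32 in KO, which overlap, and the strongest region of Rpl7l1 had 117 and 82 in Cre against 46 and 14 in KO.

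Rps27 and Rps27l, both of the small subunit, were each listed for G9a and Mef2c alone. Beside Rps27, G9a values were 39 and 11 in Cre against 5 and 135 in KO, which overlap, and Mef2c values were 37 and 24 in Cre against 75 and 59 in KO. Rps27l, a p53-induced copy, had a flanking G9a region in each direction. One was higher, with 44 and 76 in Cre against 114 and 257 in KO, and the other lower, with 106 and 114 in Cre against 57 and 33 in KO. Mef2c was lower on bases shared with the higher G9a region, with 110 and 99 in Cre against 25 and 78 in KO. The strongest Mef2c region of Rps27l lay inside the gene, with 278 and 67 in Cre against 99 and 54 in KO, which overlap. Rpl36al, a copy of the X-linked Rpl36a, had a downstream G9a region with 206 and 194 in Cre against 71 and 2 in KO. At its promoter, which is shared with Mgat2, H3K9me2 was lower with 240 and 127 in Cre against 37 and 105 in KO, and Mef2c was higher with 97 and 56 in Cre against 139 and 226 in KO. Rpl37rt, beside which H3K9me2 was higher with 23 and 36 in Cre against 139 and 160 in KO, lies next to Acads.

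The stalk proteins and the genes with fused or added roles were described whatever their values. Rplp0 had a single region, for Mef2c, with 71 and 92 in Cre against 17 and 38 in KO. Rplp2 had a Mef2c region inside the gene with 101 and 47 in Cre against 20 and 10 in KO, and Rplp1 one listed as higher, with 156 and 53 in Cre against 103 and 243 in KO. The first 2 of these did not overlap between genotypes and the last did. A flanking G9a region of Rplp2 was listed as higher, with 58 and 71 in Cre against 57 and 232 in KO, which overlap. Rpsa, which also acts as a laminin receptor, had G9a regions alone, the strongest with 117 and 133 in Cre against 101 and 0 in KO. Rps27a, which is made as a fusion with ubiquitin, had 1 region, for H3K9me2, with 68 and 121 in Cre against 27 and 66 in KO. Of ribosomal genes outside the naming rule, the X-linked Rpl10, Rpl36a, Rpl39 and Rps4x had no listed region. Fau was lower only for G9a, and Rack1, the scaffold of the small subunit, was higher only for G9a and Mef2c and lower only for H3K9me2.

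**Figure D5:**
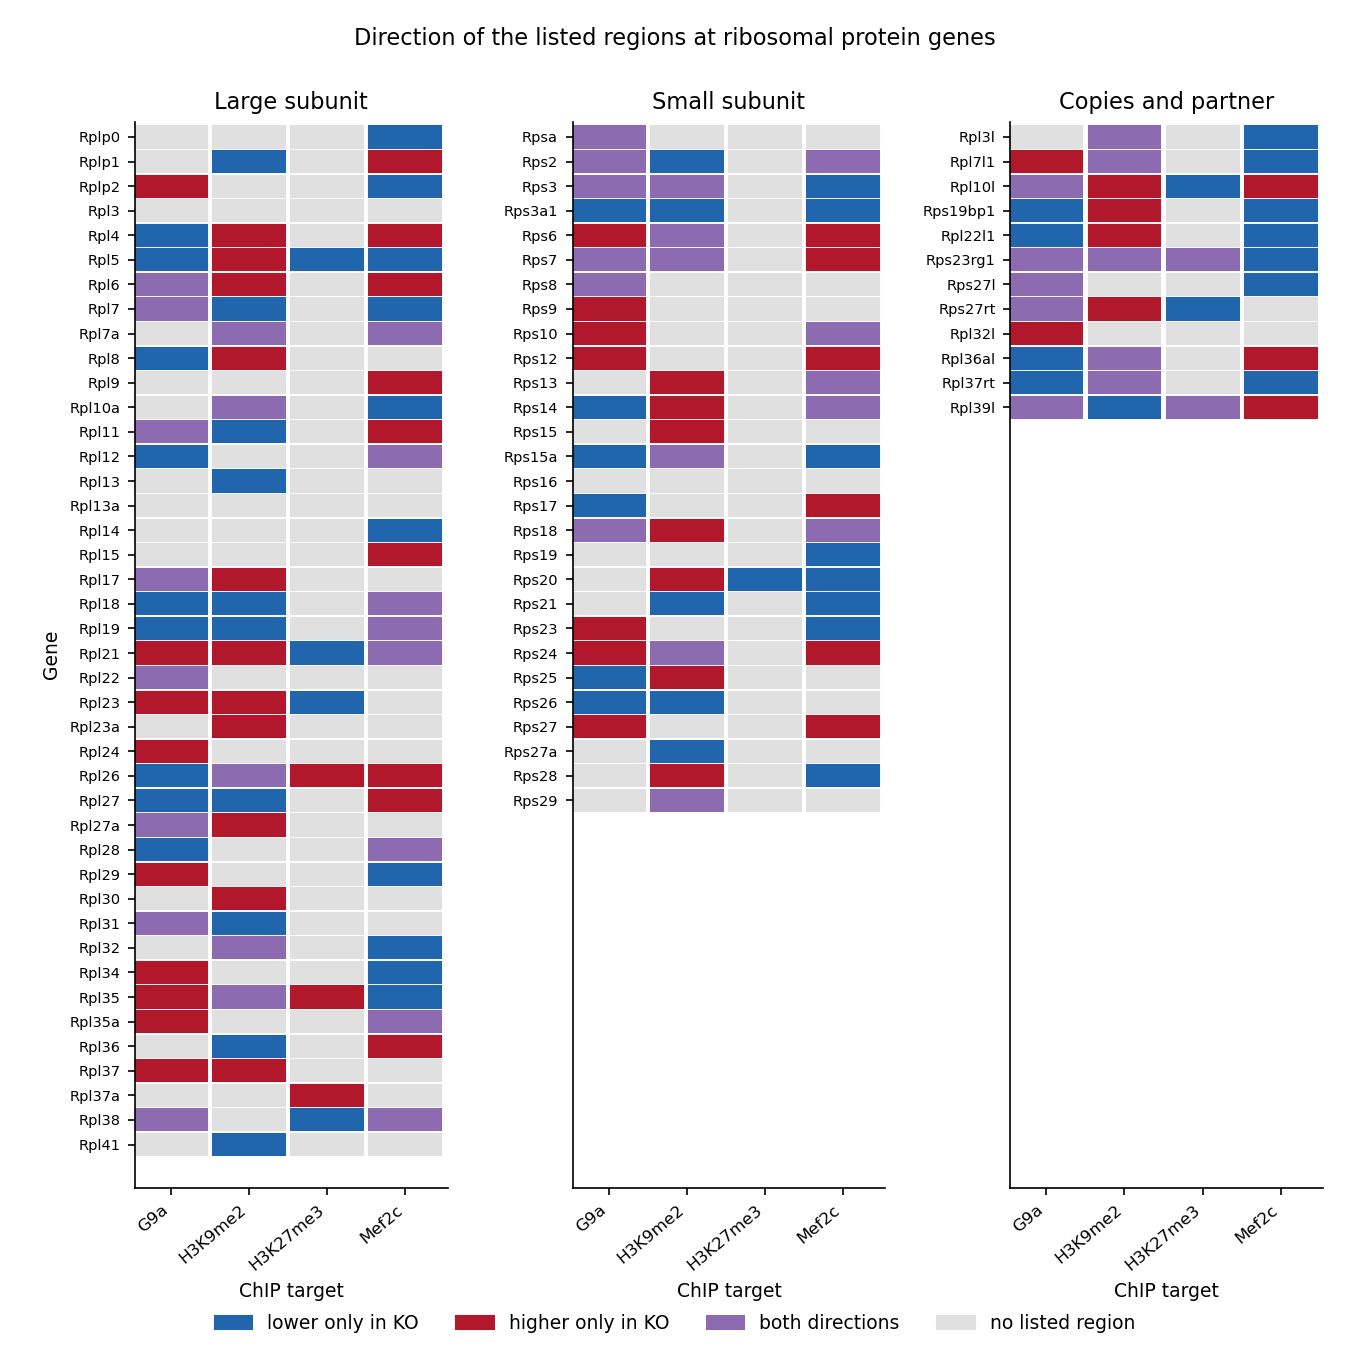
Direction of the listed regions at ribosomal protein genes (y axis) for each ChIP target (x axis), in panels for the large subunit, the small subunit and the copies with the partner Rps19bp1. The H3K27me3 column is mostly grey, and of the small-subunit genes drawn it is coloured at Rps20, where only the edge of a region lay in the 2 kb.

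Regions for all 4 targets were listed at 8 of the 85 genes (9.41%), against 63.4% of all and 51.8% of short genes. Among the 8 were the core genes Rpl5, Rpl21, Rpl26 and Rpl35 and the copies Rpl10l, Rpl39l and Rps23rg1. At Rpl5, a large-subunit protein that binds 5S ribosomal RNA, 1 site upstream of the gene was listed for every target. G9a (chr5:107898201-107898750) had 131 and 84 in Cre against 51 and 36 in KO, H3K27me3 had 201 and 250 in Cre against 124 and 125 in KO, and Mef2c had 113 and 119 in Cre against 70 and 43 in KO. These 3 were lower in both KO libraries. H3K9me2 at that site was listed as higher, with 65 and 0 in Cre against 60 and 86 in KO, which overlap. Near Rps3a1, G9a (276 and 226 in Cre, 47 and 142 in KO), H3K9me2 (114 and 96, then 56 and 44) and Mef2c were lower at 1 site, with no overlap of the genotypes.

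Opposite directions at 1 site were also listed. At Rpl27, H3K9me2 had 88 and 103 in Cre against 30 and 28 in KO, while Mef2c on the same bases had 40 and 84 in Cre against 95 and 195 in KO. At Rpl27a, G9a had 229 and 149 in Cre against 87 and 34 in KO where H3K9me2 was higher, as given above. Beside Rps28, Mef2c had 181 and 268 in Cre against 59 and 92 in KO where H3K9me2 was higher. Across the 85 genes, 34 pairs of G9a and H3K9me2 regions shared bases, 17 of them in the same direction (54.6% of 114335 pairs over all genes). G9a lower with H3K9me2 higher made up 41.2% of them (33.3% over all genes). For G9a and H3K27me3, 14 of 18 pairs had the same direction (77.8%, all genes 59.1%), and for G9a and Mef2c, 59.4% of 32 (60.2%). Pairs share genes and are described without a test.

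Over all 85 genes the log2 ratios ran from -3.07 to 5.34 for G9a, from -2.09 to 3.22 for H3K9me2, from -2.76 to 2.24 for H3K27me3 and from -6.92 to 2.65 for Mef2c. The extremes of G9a and Mef2c, at Rps9 and Rpl10a, rest on libraries listed at 0. Of 66 ratios at named regions, 43 moved by over 1.5 times when 1 value was left out. Flanking regions without a base in the gene made up 63 of the 112 G9a regions, 54 of 95 for H3K9me2, 14 of 32 for H3K27me3 and 42 of 91 for Mef2c. Of these, 20, 20, 6 and 17 lay in another annotated gene and cannot be assigned to the ribosomal protein gene alone.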

How the data were processed

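ChIP-seq libraries of cardiomyocyte-enriched cells were compared between KO and Cre for 4 targets. The submitters' processing notes name the aligner BWA (0.7.10-r789), SAMtools (1.1) and the build mm10 (GRCm38). The region caller, its filter, any normalization and any use of the inputs were not given in the sources used here. The authors deposited 1 list of regions per target, and each region has a text cell with 4 values and a score, the −log10 p from the authors' test. The order of the values (Cre, then KO) follows the name of each list, and they carry no replicate number. The depth is unknown, and the input libraries were not analysed here. The series text writes H3K27me2 where its title and the sample labels write H3K27me3, and the labels were followed.

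Gene spans, small nucleolar RNA genes and promoter sequences came from RefSeq (GRCm38.p6), without strand or exons for most genes. Log2 ratios of genotype means used a pseudocount of 1. The limma package (3.58.1, R 4.3.3) was fitted separately to all listed regions of each target, on log2(value + 1) with a mean-variance trend, and was first tested on simulated data. Replicates are those of the series' own description, and p-values measure the spread between these libraries alone. Genes were named by rule: per target, the 5 lower and 5 higher genes with the strongest region whose values do not overlap, genes listed for all targets, and a set of copies, their parents and stalk proteins whatever their values. Genes whose promoter, shared site or absence of regions is described are named too. A few genes that the rule names are not reported here, though they stay in all counts. The members and gene lists were chosen with earlier results of these data known. The mitochondrial list is every Mrpl or Mrps gene. The biogenesis, translation factor and marker lists held 40, 35 and 4 times 10 genes, all found. Alternatives changed the window, the threshold, the assignment rule, the scaling, the pseudocount, the trend and the libraries used.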

Additional observations from a re-analysis of the deposited data

How the results depend on the processing

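Of the 85 genes, 71 had no listed H3K27me3 region in the main setting. The number was 80 for the span alone, 48 with 5 kb and 79 at a stricter p (a −log10 p of 10 or more). It was 74 when most of a region had to be inside. In that order, these stood beside 39.1%, 19.7%, 53.1% and 33.0% of all genes. All settings but the 5 kb window can only raise the number, and it cannot pass 85. They could therefore not move it by 1.5 times. These alternatives for genes without a region were chosen after seeing the data. For the other targets the number started lower, at 28 for G9a and Mef2c and 30 for H3K9me2, with more room to rise. It moved with the window and the threshold. For the span alone it was 53 for G9a, 55 for H3K9me2 and 45 for Mef2c (15.5%, 14.2% and 14.5% of all genes). With 5 kb it was 11, 10 and 8 (3.81%, 3.44% and 3.64%), and at the stricter p it was 67, 71 and 68 (37.8%, 38.2% and 41.9%).

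Genes higher only for G9a numbered 10 for the span alone, 11 with 5 kb, 5 at the stricter p and 28 by the direction of the strongest region. Genes lower only for G9a numbered 9 at the stricter p and 29 by the strongest region. For H3K9me2, 3 were lower only and 9 higher only at the stricter p, 12 higher only for the span alone and 26 lower by the strongest region. For H3K27me3, 1 was lower only and 2 higher only for the span alone, 14 and 8 with 5 kb and 5 and 0 at the stricter p, and 5 were lower only when most of a region had to be inside. For Mef2c, 12 were lower only and 5 higher only at the stricter p. The strongest-region rule also assigns genes listed in both directions, so its numbers are larger by construction, and the stricter p keeps fewer regions. The cause of the other moves was not tested. Shares of all genes are not set beside these numbers, nor beside the ranges on leaving out 1 value below. The moves are therefore not a result about ribosomal protein genes in particular. Scaling to a common median moved none of these numbers of genes by over 1.5 times. It moved the median log2 ratio over all regions from -0.73 to -0.42 (G9a), from 0.72 to 0.43 (H3K9me2), from -0.64 to -0.35 (H3K27me3) and from -0.75 to -0.43 (Mef2c), and turned the balance of member regions at an unadjusted limma p under 0.05 for G9a, H3K9me2 and Mef2c.

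Leaving out 1 value at a time gave, for genes lower only and higher only, 16 to 21 and 18 to 19 (G9a), 15 to 18 and 20 to 28 (H3K9me2), 8 to 9 and 3 to 4 (H3K27me3), and 24 to 30 and 16 to 19 (Mef2c). The number of member regions past the limma threshold was 0 in every alternative except without the first G9a KO value, so its range was 0 to 10 for G9a. A lone remaining value is assumed to vary like the others. Of 396 recomputed log2 ratios at 66 named regions, 332 moved by less than the spread between libraries and 56 by more. This spread came from the same 4 values, so a move below it is no sign of a stable ratio. At 43 of the 66 regions the ratio moved by over 1.5 times when 1 value was left out. The other 8 of the 396 ratios (at 7 regions) changed sign, each on leaving out 1 value. Over the values left out in turn, these ratios ran from -4.58 to 0.40 for Rpl22l1, from -0.18 to 1.83 for Rplp2 and from -2.12 to 2.56 for Rps27 (G9a), and from -1.82 to 2.57 for Rpl7 (H3K9me2). For Mef2c they ran from -0.050 to 1.64 for Rpl39l, from -0.021 to 1.69 for Rplp1 and from -1.85 to 0.19 for the region inside Rps27l. A filter on mean values of at least 20 removed no region. No paired analysis was possible because the listed values carry no replicate number. The unknown depth limits what a missing region can show.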
